A study of Vanessa cardui and Junonia coenia with 16 samples.

Results

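The knockout of optix was compared with the wild type in forewings of the painted lady butterfly, Vanessa cardui, using 4 of the 16 RNA-seq libraries of the study. The 2 knockout libraries came from forewings labelled as optix knockouts with large defects, and the 2 wild-type libraries from unaltered forewings. All 4 are from the pupal stage that the labels name for melanin, when orange and dark pigments are appearing, and all animals were reared at 27 °C from purchased caterpillars. The labels give 2 biological replicates per group. They do not give the share of knockout cells in a wing, so a wing with large defects may still hold wild-type cells. The other libraries used here are 2 melanin-stage knockout hindwings and the 2 forewings of 1 mosaic individual at the ommochrome stage, 1 with large and 1 with small defects. No other wild-type wing of this species was analysed here. Every transcript row with a mean of at least 1 FPKM (a fragment count corrected for the length of the transcript and the size of the library) over the 4 forewings was kept, which gave 19757 of 74995 rows. Rows that share the c number of their identifier belong to 1 component of the transcriptome assembly, and their summed FPKM gave 14737 components of 57767.

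The gene optix encodes a homeodomain transcription factor and is known as a switch gene of butterfly wing colour. In the scale cells of a pupal wing it is known to promote the orange and red ommochrome pigments, which are made from tryptophan, and in painted lady wings its loss is known to leave dark melanin, made from tyrosine, where orange would be. Each scale is the product of 1 cell, so RNA of the whole wing sums over scales of several colours as well as over epithelium, veins and tracheae. Rows have identifiers without gene names, and a search in the V. cardui reference table of 15000 genes gave 0 matches. The level of optix itself, the pigment genes and markers of wing cell types are therefore not analysed here, and genotypes are as labelled. In whole wings, fewer cells of a type and less RNA per cell cannot be told apart.

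The libraries of the 2 genotypes differed in depth and in make-up, and the part of these differences in the results below was not tested. Depth relative to the shallowest library, estimated from the lowest values, came to 1.0 and 1.92 for the 2 knockouts, against 3.03 and 2.14 for the 2 wild types. The pair of knockout 1 and wild type 1 departed from this estimate by 0.98 (log2). Total FPKM was 1169508 and 1076494 in the knockouts, against 796362 and 909284 in the wild types. The 10 most abundant rows held 36.5% ± 2.62 of it in the knockouts and 27.1% ± 0.75 in the wild types (SD, n = 2 each). Neither quantity overlapped between genotypes, but with 2 libraries against 2 an exact two-sided permutation test cannot go below p = 0.333. Of the tested rows, 3435 and 1753 were listed at 0 in the knockouts, against 866 and 1505 in the wild types. Replicates correlated at 0.871 (knockouts) and 0.863 (wild types), while pairs of different genotype reached 0.70 to 0.83 (Pearson's r over the log2 values of all tested rows, which are not replicates). On the same measure, knockout forewings correlated with knockout hindwings at 0.855 to 0.911, about as closely as with each other.

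The question was which transcripts differ in abundance between knockout and wild-type forewings. By limma, 170 rows (0.86% of those tested) passed an adjusted p of 0.05, and these are called below. Of them 47 (0.238%) were higher and 123 (0.623%) lower in the knockout forewings. In all 170 the knockout and wild-type libraries did not overlap, which a call with 2 libraries per group largely requires. Of all tested rows, 8.59% were higher and 20.3% lower without overlap and with a log2 change of at least 1 in size. The called changes were large, but small changes could hardly pass with so few libraries, so their size follows in part from the call. Rows called higher changed by a median of 3.07 and rows called lower by a median of -3.32 on the log2(FPKM + 1) scale. The median over all tested rows, where rises and falls offset each other, was -0.13. The smallest called change was 1.81 in size. Among called rows above 0 in all 4 forewings, the median was 2.72 for the 28 that rose and -2.96 for the 24 that fell.

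**Figure D1:**
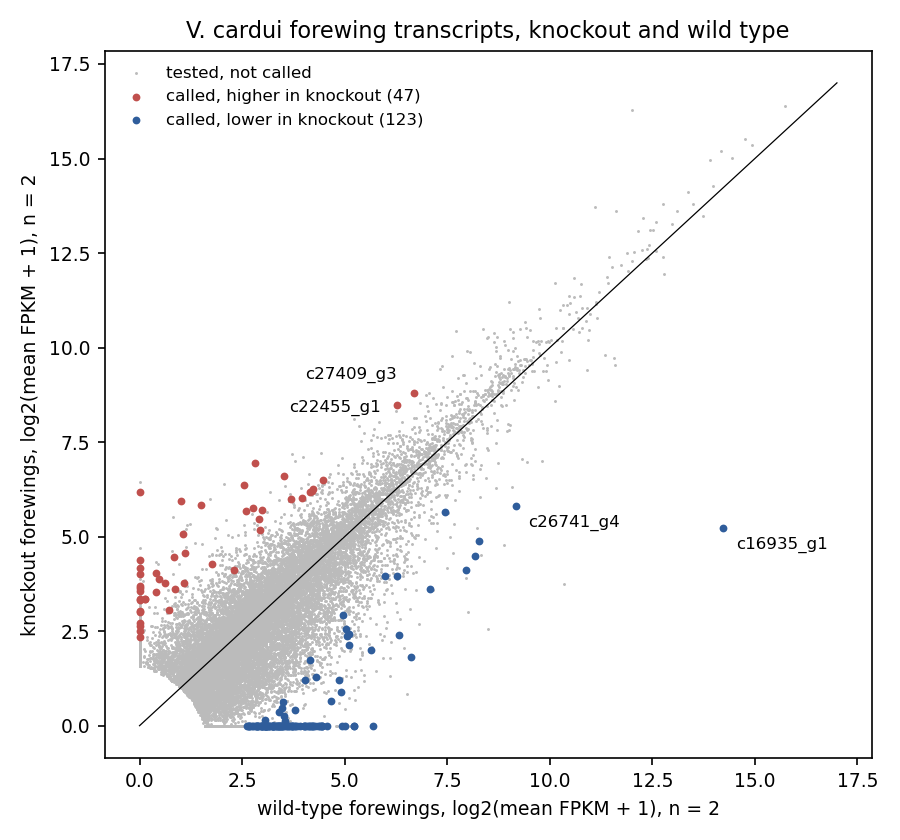
Mean abundance of each tested row in wild-type forewings (horizontal) and knockout forewings (vertical), both as log2(mean FPKM + 1) of 2 libraries, with the line of equality. The 47 red and 123 blue points are the rows called higher and lower in the knockout. Among the blue points c16935_g1 stands alone at the right, and many others lie at 0 in the knockout.

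The calls lie close to the threshold and depend on the filter, the pseudocount and how the spread was estimated. Of the 170, 169 had an adjusted p between 0.045 and 0.05, and a further 139 rows lay between 0.05 and 0.06. With a pseudocount of 0.1, with no filter on low values or with a filter at 5 FPKM, limma called 1 row each time, c16935_g1. The spread was taken from 6 libraries, the 4 forewings and the 2 knockout hindwings. With the 4 forewings alone limma called 0 rows, although 4701 passed an unadjusted p of 0.05, and without either knockout hindwing library it called 0 as well. Without knockout forewing 1 there were 0 calls, without knockout forewing 2 there were 161, of which 9 were among the 170 and 136 were higher against 25 lower (84.5% higher), while 962 rows passed without wild-type forewing 1 and 871 without wild-type forewing 2. The unadjusted values were less sensitive: at an unadjusted p of 0.05, 4871 rows (24.7%) passed, 1631 higher and 3240 lower, and leaving out 1 library at a time gave 3040 to 5287.

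The row that lost most was c16935_g1, which was very abundant in both wild types. It was at 40.1 and 33.4 FPKM in the knockout forewings, against 22926 and 15566 FPKM in the wild-type forewings. Both knockouts were far below both wild types. The change was -8.97 (log2, SE 0.31, adjusted p = 0.0105, limma). In the wild types this single row held 2.88% and 1.71% of all FPKM and ranked 4 and 8 among all rows. In the knockouts it held 0.00343% and 0.0031% and ranked 1859 and 2266, so it was still a detected transcript. It is the only row of its component, and its sum is therefore the same (adjusted p = 0.00579 among components). The row lost its call with the 4 forewings alone (adjusted p = 0.0679) and with a block for the replicate number (0.0928). It also lost its call without knockout forewing 1, knockout hindwing 1 or knockout hindwing 2. It passed in 11 of the 16 settings, the one reported included, and its change stayed between -9.42 and -8.69 in every setting tried.

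The second called row by loss of FPKM, c26741_g4, was at 48.6 and 62.5 FPKM in the knockout forewings, against 419 and 738 FPKM in the wild types. The wild types were well apart from each other, and both were above both knockouts. The change was -3.31 (log2, SE 0.33, adjusted p = 0.0452, limma). Its component has 1 other tested row, which was more abundant, at 577 and 546 FPKM in the knockouts and 867 and 1121 FPKM in the wild types, and was not called (log2 change -0.81, adjusted p = 0.142). The sum over the component was 626 and 609 FPKM in the knockouts and 1287 and 1859 FPKM in the wild types, a change of -1.32 that was not called (adjusted p = 0.0991). Scaled to equal totals the sum passed (-1.72, adjusted p = 0.048). The row itself was not called without either knockout forewing or either knockout hindwing library (adjusted p = 0.131, 0.0623, 0.0868 and 0.0879), and it passed in 7 of the 16 settings, the one reported included.

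The next called rows by loss of FPKM were of middle abundance. The third was at 23.6 and 33.9 FPKM in knockouts against 264 and 358 FPKM in wild types (log2 change -3.40), and the fourth at 16.4 and 26.2 FPKM against 234 and 341 FPKM in wild types (-3.70). Each is the only row of its component, and neither sum was called (adjusted p = 0.052 for both). The fifth was at 13.6 and 19.2 FPKM in knockouts against 187 and 312 FPKM in wild types (-3.82), but it shares a component with other rows and the sum changed by -1.12 (adjusted p = 0.132). The sixth had close replicates, at 45.0 and 53.5 FPKM in knockouts against 177 and 171 FPKM in wild types, and the smallest change of these (-1.81). The eighth was nearly absent from the knockouts, at 1.93 and 3.1 FPKM, against 74.5 and 118 FPKM in the wild types (-4.78). In each of these the genotypes were several times farther apart, on the log2 scale, than the replicates of either one. The rows were listed because they were called, and a call largely requires such a gap.

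Of the called rows that rose, c27409_g3 gained most FPKM. It was at 495 and 387 FPKM in the knockout forewings, against 115 and 87.5 FPKM in the wild types. The change was 2.11 (log2, SE 0.25, adjusted p = 0.049, limma). Its component shows rows moving both ways. A second row, at 215 and 187 FPKM in the knockouts and 104 and 74.1 FPKM in the wild types, was higher (log2 change 1.18, adjusted p = 0.0879), and another, at 19.8 and 40.5 FPKM in the knockouts and 78.0 and 74.1 FPKM in the wild types, was lower (-1.39, adjusted p = 0.114). Neither was called. The sum over its 6 rows was 800 and 745 FPKM in the knockouts and 419 and 357 FPKM in the wild types, a change of 0.99 that was not called (adjusted p = 0.107). The row was not called without knockout forewing 1 or 2, wild-type forewing 2, or knockout hindwing 1 or 2 (adjusted p = 0.152, 0.064, 0.0722, 0.0952 and 0.0956). It also lost its call under median-of-ratios scaling (0.0506), quantile normalization (0.0567), a pseudocount of 0.1 (0.06), no filter (0.103) and a filter at 5 FPKM (0.0685), and passed in 4 of the 16 settings.

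The second was c22455_g1, the only row of its component. It was at 390 and 322 FPKM in the knockout forewings, against 79.8 and 73.5 FPKM in the wild types, with close replicates in both genotypes. The change was 2.20 (log2, SE 0.22, adjusted p = 0.0452, limma), and as a component it just missed the threshold (adjusted p = 0.052). The row was not called without either knockout forewing or either knockout hindwing library (adjusted p = 0.119, 0.0593, 0.086 and 0.0873) and passed in 7 of the 16 settings. The component passed in 5 of the 16 settings. Among them were scaling to equal totals (adjusted p = 0.047), median-of-ratios scaling (0.048) and quantile normalization (0.0467).

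Several of the further called rows that rose were low in the wild types. The third was at 150 and 96.5 FPKM in knockouts against 8.79 and 3.32 FPKM in wild types (log2 change 4.22, component 4.26). The fourth was at 83.8 and 108 FPKM in knockouts against 9.51 and 11.3 FPKM in wild types (3.08, the only row of its component). The fifth was at 90.1 and 72.9 FPKM in knockouts against 4.58 and 5.07 FPKM in wild types (3.82, component 3.32). The sixth stood at 99.2 and 42.9 FPKM in the knockouts, and both wild types list it at 0. The eighth was at 59.0 and 61.0 FPKM in knockouts against 1.27 and 0.75 FPKM in wild types (4.94, component 3.09). The seventh differs from these, since it was at 92.3 and 85.9 FPKM in knockouts against 22.5 and 19.99 FPKM in wild types (2.02) while the sum of its 2-row component changed by 0.31 (adjusted p = 0.52). None of these components was called.

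**Figure D2:**
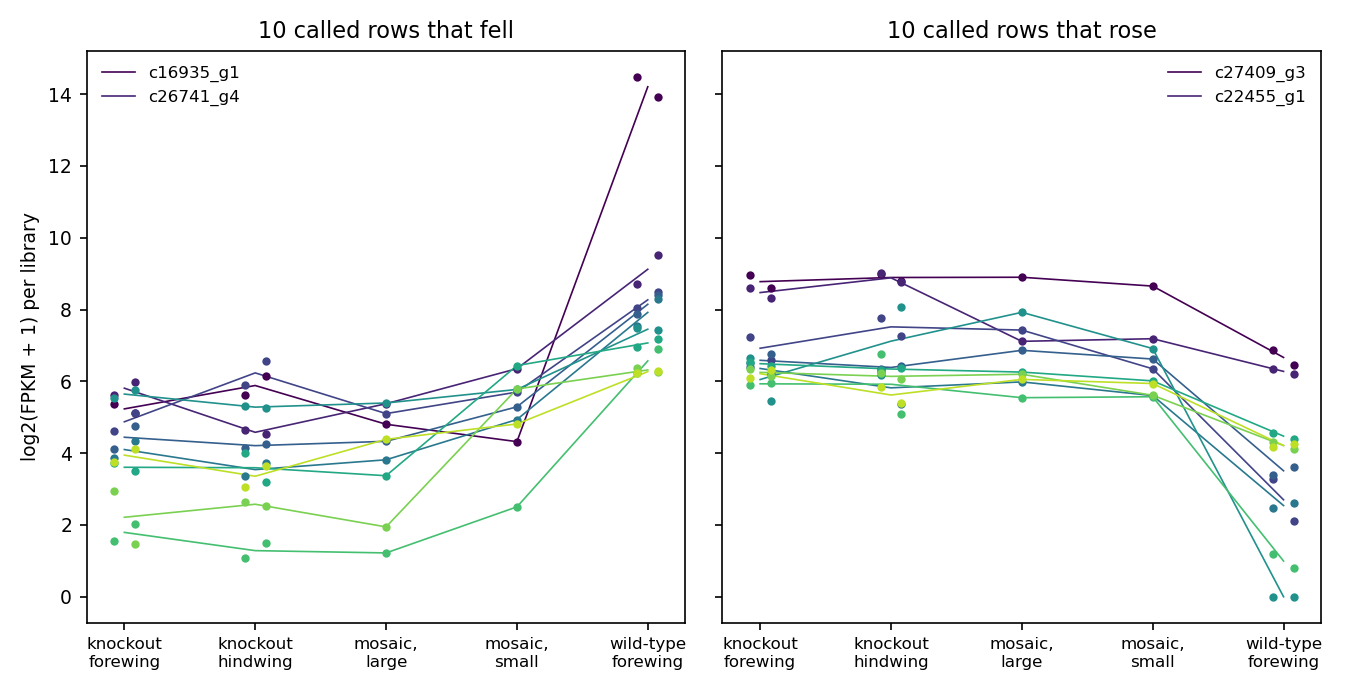
Level of the 10 called rows that lost most FPKM (left) and the 10 that gained most (right), as log2(FPKM + 1), with 1 point per library and lines joining the group means. From left to right stand knockout forewings, knockout hindwings, the large-defect and small-defect wings of the mosaic individual, and wild-type forewings. The wild-type forewings lie above the knockout forewings on the left and below them on the right, and c16935_g1 spans the widest range.

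The same rows were read in the other wings labelled as knockouts. The knockout hindwings were part of the fit and any comparison with them would share the wild-type forewings, so only levels are given. Their spread also entered the calls, so rows whose 2 hindwings were alike, at 0 included, were more readily called. The 123 rows called lower had a median of 0 FPKM in each knockout forewing and in each knockout hindwing, against 10.6 and 11.0 FPKM in the wild-type forewings. In the mosaic individual their median was 0.695 FPKM for the large-defect and 3.02 FPKM for the small-defect wing, with 53 and 28 of them listed at 0. The 47 rows called higher had a median of 20.4 FPKM in knockout forewing 1 and 16.7 FPKM in knockout forewing 2. Their medians were 19.6 and 13.98 FPKM in knockout hindwings, 15.9 and 17.1 FPKM in the large-defect and small-defect wings, and 0.88 and 0.75 FPKM in the wild-type forewings. The largest falls were not alike in the mosaic wings. The row c16935_g1 was at 27.0 FPKM with large defects and 19.0 FPKM with small defects, both below the knockout forewings. It was at 48.1 and 70.0 FPKM in the knockout hindwings. The row c26741_g4 was at 40.6 FPKM with large defects and 80.7 FPKM with small defects, both near the knockout forewings. The seventh and the ninth were instead at 9.35 and 2.85 FPKM where defects were large and at 85.8 and 54.3 FPKM where they were small, and the wild types had 123 and 144 FPKM for the seventh and 81.5 and 76.1 FPKM for the ninth. Each mosaic wing is 1 library from another stage, so stage and genotype cannot be told apart here.

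Many called rows were listed at 0 in 1 genotype. Both knockout forewings were at 0 for 93 of the 123 rows called lower, and both wild types for 15 of the 47 called higher. Replicates both at 0 have no spread, which eases a call. Of all 9443 tested rows between 2 and 10 FPKM, 441 were at 0 in both knockouts and 128 in both wild types. Of the 5558 between 10 and 100 FPKM, the counts were 22 and 3. Of the 3936 between 1 and 2 FPKM, where no row was called, they were 686 and 270. Over all tested rows, 171 were at 0 in both knockouts with at least 5 FPKM in both wild types, and 28 showed the reverse. The abundance of these rows was limited: at a minimum of 20 FPKM there were 6 and 2. A value of 0 also occurred within a genotype. At 0 in knockout 1 with at least 5 FPKM in knockout 2 were 560 rows, and 288 showed the reverse. At 0 in wild type 2 with at least 5 FPKM in wild type 1 were 307 rows, and 203 showed the reverse. Of the 171, 98 were also at 0 in both knockout hindwings and 17 above 0 in both. In the mosaic wings 67 of the 171 were above 0 in both and 32 at 0 in both. The knockout libraries were the shallower ones and held more rows at 0, and the part of depth in these counts was not tested.

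With FPKM as deposited, the direction of change went with abundance. Here a row counts if its knockout and wild-type forewings did not overlap and its log2 change was at least 1 in size, which held for 1698 rows higher (8.59%) and 4014 lower (20.3%) in the knockouts. Among the 88 rows at a mean of 1000 FPKM or more, 16 were higher (18.2%) and 5 lower (5.68%). Among the 9443 rows between 2 and 10 FPKM, 744 were higher (7.88%) and 2177 lower (23.1%). The median change ran from -0.42 in the class of 1 to 2 FPKM, through -0.20, 0.04 and 0.26, to 0.46 in the class of 1000 FPKM or more. Scaled to equal totals the medians of the lowest and highest class were -0.62 and 0.06, and with quantile normalization 0.16 and 0.04.

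**Figure D3:**
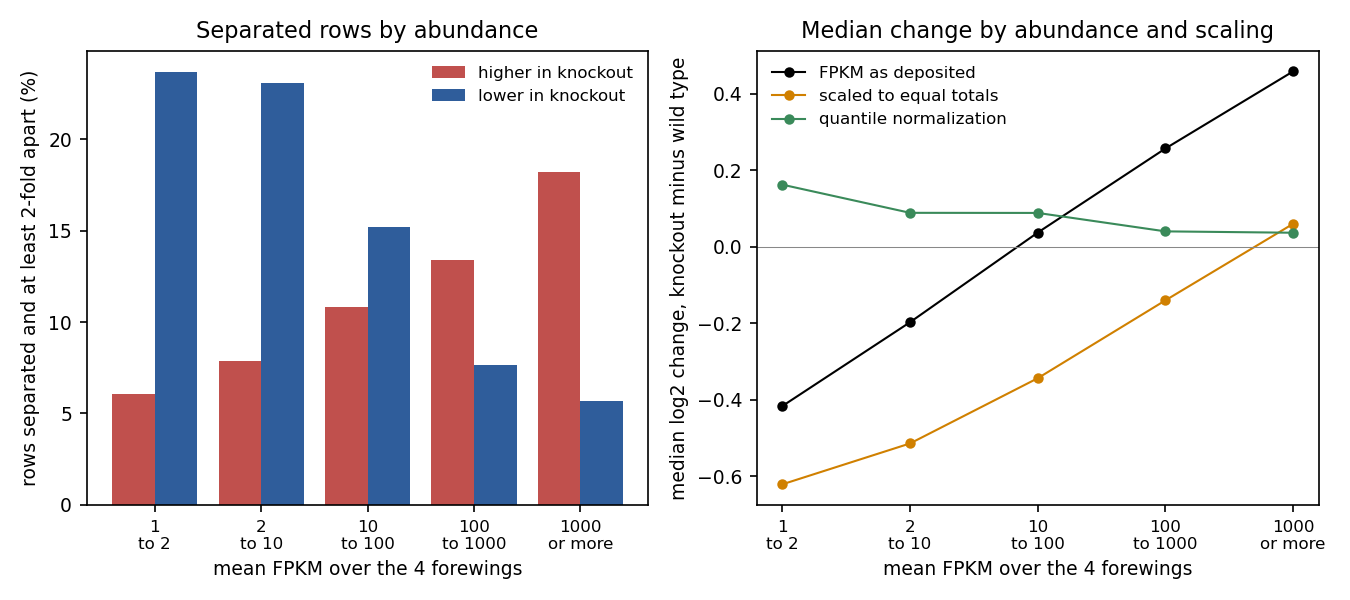
Tested rows by mean FPKM over the 4 forewings. Left, the percentage of rows whose genotypes did not overlap and whose log2 change was at least 1 in size, higher (red) or lower (blue) in knockouts. Right, the median log2 change under 3 scalings: it climbs from -0.42 to 0.46 with FPKM as deposited and stays between 0.04 and 0.16 with quantile normalization.

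The median of all rows therefore depends on the scaling, and with it the balance of directions. It was -0.13 with FPKM as deposited, -0.45 when each library was scaled to a total of 1000000, and 0.09 with quantile normalization. Rows called higher made up 27.6% of the calls as deposited, 10.3% of 624 calls after scaling to equal totals and 42.9% of 147 calls with quantile normalization. The balance also turned with 1 library, to 84.5% higher without knockout forewing 2. Of the 170 called rows, 168 were also called after scaling to equal totals and 114 with quantile normalization.

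Apart from c16935_g1 and 1 row that was far higher in the knockouts, the 10 most abundant transcripts were largely shared by the genotypes. That row ranked 2 by mean FPKM in the knockouts and was not among the 10 most abundant in the wild types. It was at 101257 and 58785 FPKM in knockouts against 7813 and 448 FPKM in wild types, and was not called (log2 change 5.36, adjusted p = 0.0983, limma). The rows ranked 12 and 14 in the knockouts were also far higher there (log2 changes 3.63 and 3.03), and neither was called. Of the 10 most abundant rows, 8 were common to both genotypes, and of the 100 most abundant, 79. The top row of both was at 89135 and 83508 FPKM in knockouts and 44978 and 64707 FPKM in wild types (log2 change 0.68, adjusted p = 0.407). The 8 shared rows changed by 0.30 to 1.04 with FPKM as deposited and by -0.10 to 0.64 after scaling to equal totals, and none was called (smallest adjusted p = 0.179).

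Summing rows per component left c16935 as the 1 called component of 14737 (0.00679%, 0 higher and 1 lower). A further 69 components had an adjusted p between 0.05 and 0.06, 21 higher and 48 lower, and 3172 (21.5%) passed an unadjusted p of 0.05. The component was also called with the 4 forewings alone (adjusted p = 0.0377) and without knockout hindwing 1 or 2, but not without knockout forewing 1 or knockout forewing 2 (0.12 and 0.0631). Counts of called components moved widely between settings. There were 0 without either knockout forewing, 648 and 557 without wild-type forewing 1 or 2, 2 without knockout hindwing 2 and 163 after scaling to equal totals.

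The sums separate called rows that stand for a whole component from rows that moved against their neighbours. Of the 123 rows called lower, 82 were the only row of their component, and of the 47 called higher, 20, where 49.1% of all tested rows were. Of the 41 called lower with other rows in the component, the sum moved the same way by a log2 change of at least 1 in 28, by less in 9 and the other way in 4. Of the 27 called higher with other rows, the counts were 18, 7 and 2. One row called lower was at 0 and 0.67 FPKM in the knockouts and 12.5 and 13.3 FPKM in the wild types, while the sum of its component was 349 and 200 FPKM in the knockouts and 73.2 and 25.8 FPKM in the wild types. In 1 called higher, at 30.4 and 39.5 FPKM in knockouts and 7.87 and 5.46 FPKM in wild types, the sum over 6 tested rows was 59.3 and 93.8 FPKM in knockouts and 77.9 and 93.0 FPKM in wild types. Over all 3128 components with at least 2 tested rows, 176 (5.63%) held both a row higher and a row lower that did not overlap and had a log2 change of at least 1 in size, and in 155 of these the sum changed by less than 1. Whether rows of a component are splice forms, alleles, related genes or fragments of 1 gene is not given in the files.

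**Figure D4:**
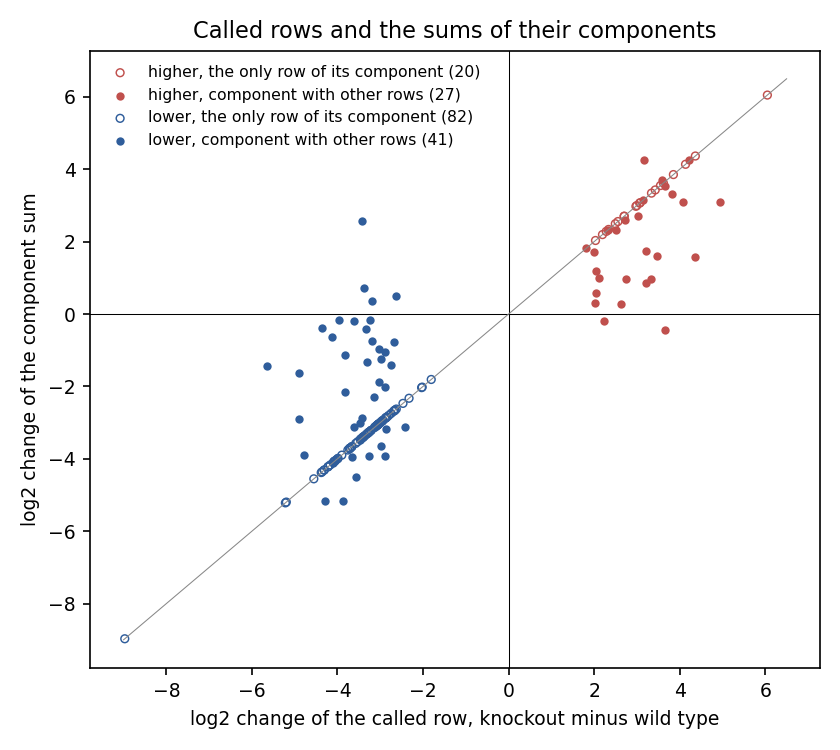
Log2 change, knockout minus wild type, of each called row (horizontal) and of the FPKM sum of its component (vertical). Open circles are the only row of their component and lie on the line of equality. Filled circles have other rows beside them, and 4 called lower and 2 called higher lie across the horizontal zero line.

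Some of the widest gaps between genotypes were not called, and in several of these the libraries of a group were unlike each other. Among rows at a mean of at least 100 FPKM whose genotypes did not overlap, 12 changed by at least 3 (log2) without being called, 8 lower and 4 higher, and these were singled out after their values were seen. The largest of them to fall was at 10.7 and 14.3 FPKM in the 2 knockouts, against 880 and 1711 FPKM in the 2 wild types (log2 change -6.52, SE 1.68, adjusted p = 0.103, limma). The knockout hindwings in the same fit were at 24.9 and 1040 FPKM, so 1 hindwing was near the knockout and the other near the wild-type forewings. With the 4 forewings alone its adjusted p was 0.0858. A second row of its component was alike, at 5.09 and 4.68 FPKM in knockouts and 300.3 and 413 FPKM in wild types, with hindwings at 11.8 and 1030 FPKM.

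The wild-type forewings differed from each other in a set of abundant transcripts. Of the 88 rows at a mean of at least 1000 FPKM, 13 were at least 4-fold apart between the wild types, 9 of them higher in wild type 1, and 1 was at least 4-fold apart between the knockouts. The 9 rows together held 11.4% and 9.14% of all FPKM in the knockout forewings, 4.01% in wild type 1 and 0.303% in wild type 2. Without the most abundant of them, the other 8 rows held 2.77% and 3.67% in the knockout forewings, 3.03% in wild type 1 and 0.254% in wild type 2, so that wild type 1 then lay within the range of the knockouts. All 9 together also held 8.95% and 9.14% in the knockout hindwings and 10.7% and 10.8% in the large-defect and small-defect mosaic wings. The most abundant, which ranked 2 by mean FPKM in the knockouts, was at 101257 and 58785 FPKM there, against 7813 and 448 FPKM in the wild types. The change of 5.36 (log2, SE 1.33) was not called (adjusted p = 0.0983, limma), and the gap between the wild types was 4.12 on the same scale.

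The next was at 14826 and 12285 FPKM in the knockouts and 4144 and 285 FPKM in the wild types, and the third at 10722 and 14170 FPKM in the knockouts and 5877 and 385 FPKM in the wild types. In 4 of the 9 rows the genotypes did not overlap, all higher in the knockouts, and 0 of the 9 were called. In the other 5 rows wild type 1 was within or above the range of the knockouts, and wild type 2 was the lowest library of the 4. The 9 rows were chosen for the gap between the wild types, which is given as a description. A wide gap between replicates works against a call, so the lack of calls follows in part from the choice. Among all 88 rows of this abundance, 16 were higher and 5 lower without overlap and with a log2 change of at least 1 in size.

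**Figure D5:**
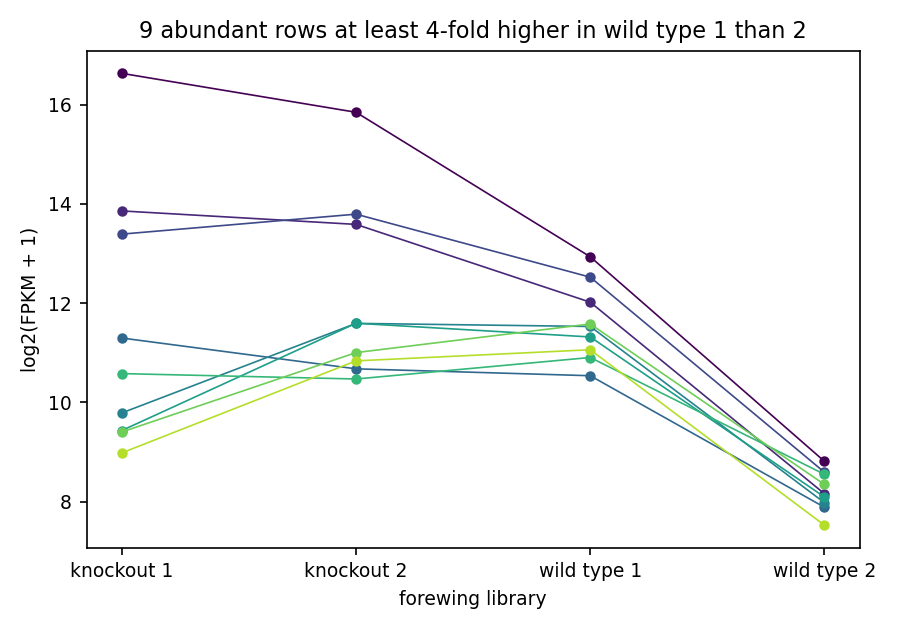
Level of the 9 abundant rows that were at least 4-fold higher in wild type 1 than in wild type 2, as log2(FPKM + 1), in the 4 forewing libraries (lines join the values of 1 row). Wild type 2 is the lowest library in every row, and the most abundant row is at 101257 and 58785 FPKM in the knockouts.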

How the data were processed

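RNA-seq values of V. cardui forewings were analysed. FPKM values per assembly row and library were computed and deposited by the authors. Bowtie2 was used, per the submitters' processing notes; the sources used here do not give its version, the programs behind assembly and quantification, or how libraries were scaled. Per the labels' protocols, poly(A) libraries had 15 PCR cycles and paired reads of 36 bp. FPKM keeps no read counts, so precision comes from replicates. Relative depth was taken from the peak ratio of values under 0.6 FPKM. No label names 2 of the table's columns, which were not used.

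Limma 3.58.1 (R 4.3.3) was fitted to log2(FPKM + 1), which understates changes of low rows, with group means of 6 melanin-stage libraries and trended moderation. P-values are two-sided and adjusted by Benjamini-Hochberg over all tested rows or components. The fit was run on simulated data, but how it treats groups whose replicates have no spread was not tested. The rule for named rows was the 2 called, non-overlapping rows per direction with the largest difference in mean FPKM. Other rows are given by that rank, and those singled out otherwise were chosen after their values were seen. The comparison, fit and lists were chosen with earlier results of these data known. The alternatives tried were 0.1 as pseudocount, an open filter, a filter at 5 FPKM, scaling by median of ratios, quantiles or totals, the forewings alone, no trend, a replicate block and leaving out each library. Where a group keeps 1 library, it is assumed to vary like the others. The table of the second species was not used.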

Additional observations from a re-analysis of the deposited data

How the results depend on the processing

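Against 170 called rows, there were 139 calls under median-of-ratios scaling (137 of them among the 170) and 147 under quantile normalization (114 among the 170). There was 1 call with a pseudocount of 0.1, without the filter and with a mean of at least 5 FPKM, 0 with the forewings alone, 549 without the trend and 624 scaled to equal totals (chosen after seeing the data). Leaving out 1 library gave 0 to 962. For components the 1 call remained alone with a pseudocount of 0.1, both filters and the forewings alone. It was joined by others under median-of-ratios scaling (48 in all), quantile normalization (47), no trend (255) and total scaling (163), and leaving out 1 library gave 0 to 648. The median row, -0.126 as deposited, came to 0.0171 with the filter at 5 FPKM, 0.0943 with quantile normalization and -0.449 scaled to equal totals. The replicate number does not pair the animals in the labels, so the numbers were not taken as pairs. Differences between replicates correlated at 0.01 between the genotypes and at -0.1 between knockout forewings and hindwings. Whether a knockout forewing and a knockout hindwing came from the same animal is not known here. With the replicate block there were 0 called rows and 0 called components (4329 and 2810 at an unadjusted p under 0.05). The 4 named rows and their components kept their direction in all settings, with 38 values losing the call and 6 gaining it. The cause of these moves was not tested.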
